A study of Mus musculus with 10 samples.

Results

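Fpr1, Fpr2, C5ar1, Ltb4r1, Ptafr, Hcar2, Mrgpra2a, Mrgpra2b and S1pr1 encode cell-surface receptors for formyl peptides and other chemoattractants, lipids and metabolites. They were given as a list of gene names, selected on expression values of these same libraries by cell type and tumour (which of these values decided is not stated). The list held 10 genes, of which 9 are described, among the 29972 genes quantified. All 9 had quantified transcripts, and all 9 passed the filter on low counts. Because the list was made knowing these libraries, the receptors' levels and differences are given as a description, and where a fit across all genes called one of them, that call is named but supports nothing.

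Formyl peptide receptors, the complement C5a receptor and the receptors for leukotriene B4 and platelet-activating factor steer neutrophils and monocytes towards injured or infected tissue. They signal mainly through inhibitory G proteins, whose beta-gamma subunits drive phosphoinositide 3-kinase, phospholipase C and Rac, and they are silenced by receptor kinases and arrestins. Other members of this group sense metabolites (Hcar2), peptides (the Mas-related receptors) or sphingosine-1-phosphate (S1pr1).

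RNA was sequenced from neutrophils and from CCR2+ monocytes, sorted by flow cytometry out of the lungs of NOD/scid mice that bore breast tumours to end point. Low metastatic tumours HCl-002 (TN2) were compared with highly metastatic tumours HCl-001 (TN1), so that the 4 groups were TN2 neutrophils (tag_367, tag_706 and tag_1341), TN1 neutrophils (tag_191 and tag_482), TN2 monocytes (tag_367, tag_706 and tag_1341) and TN1 monocytes (tag_191 and tag_482). Every mouse carried the scid defect, so that mature T and B cells are missing from all groups, and NOD-derived strains are known to carry a null allele of Hc, the gene of complement C5, the source of the C5ar1 ligand. The labels name no mouse without a tumour, give no age, and do not say that tags are separate animals, so p-values measure only the spread between these samples, which may be technical.

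Libraries held 7239218 to 11311370 estimated counts. Fewest genes reached 5 counts in TN1 tag_482 (8863 in neutrophils and 9744 in monocytes), which also had the highest mitochondrial share of TPM (transcript abundance scaled for length and library), 3.11% and 21.1%. Summed over 15 neutrophil markers, neutrophil libraries held 80583 to 106390 CPM (counts scaled to library size), against 1279 to 2944 CPM in monocyte libraries. Summed over 15 monocyte markers, neutrophil libraries held 5213 to 16424 CPM, against 17614 to 43451 CPM in monocyte libraries, so each marker set was higher in the cells of its label. The TN2 tag_1341 neutrophil library held the 16424 CPM, against 5213 to 8553 CPM in the other neutrophil libraries, and the median monocyte marker stood there at 25.6% of its mean monocyte level, against 3.45% to 5.75% in the others. The TN2 tag_706 monocyte library stood apart with 1408 CPM of endothelial and 1140 CPM of stromal markers, and its monocyte marker sum of 17614 CPM was the lowest among monocyte libraries. The T cell marker Cd3e and the eosinophil and basophil markers Epx and Mcpt8 were at 0 in every library, but some others of their lists were not. Summed, 7 lymphocyte markers held 0 to 7.48 CPM per library, and 8 eosinophil, basophil and mast cell markers 0.0792 to 22.7 CPM.

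Neutrophils carried most of these receptors at far higher levels than monocytes. Within neutrophils the libraries of the tumours overlapped for all 9, whereas TN2 lay wholly above TN1 for 11.8% of all genes and wholly below for 5.93%. With groups of 3 and 2 libraries, overlap does not show that the levels were equal. In bulk samples such as these, fewer cells of a type and less RNA per cell cannot be told apart. In neutrophils 8 of the 9 genes exceeded 100 CPM in every library, whichever tumour the mouse bore. Every neutrophil library lay above every monocyte library for 7 receptors (Fpr1, Fpr2, C5ar1, Ptafr, Hcar2, Mrgpra2a and Mrgpra2b), a pattern that 12.5% of the 13398 genes tested showed. For 0 of the 9 did every neutrophil library lie below every monocyte library, against 16.1% of all genes. Ltb4r1 and S1pr1 overlapped between the cell types.

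**Figure D1:**
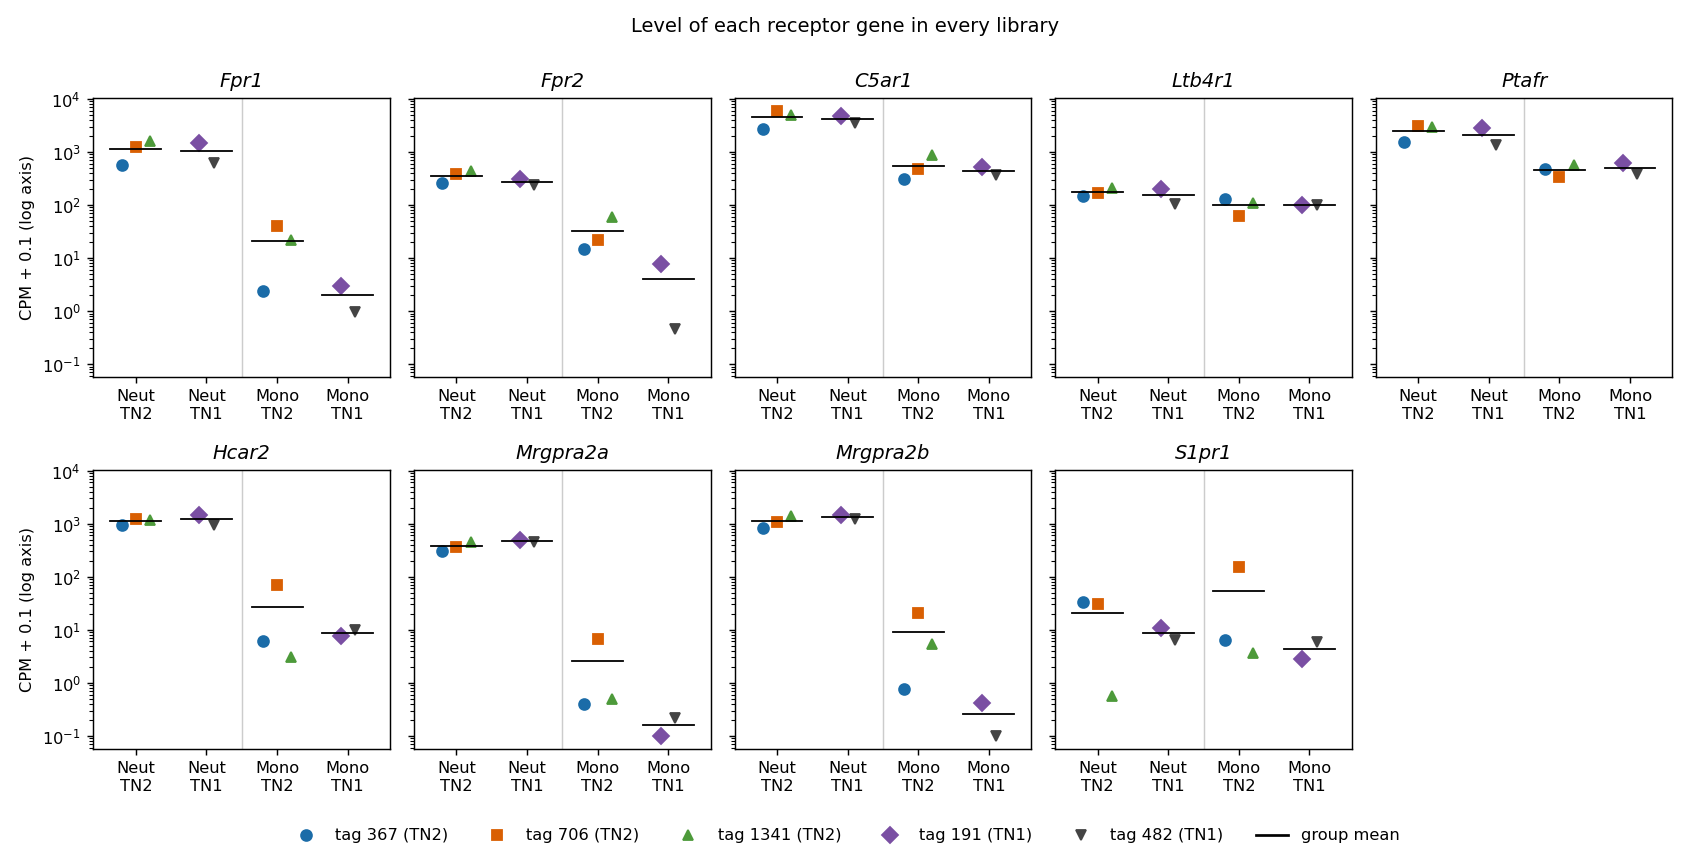
Level of each receptor gene in each library, as CPM plus 0.1 on a log axis, with TN2 left of TN1 and neutrophils left of monocytes; symbols are tags and bars are group means. C5ar1 and Ptafr were well above 100 CPM in all 10 libraries, Mrgpra2a and Mrgpra2b were close to 0 in most monocyte libraries, and S1pr1 was low in most libraries of both cell types.

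Fpr1 is the high-affinity receptor for formylated peptides released by bacteria and mitochondria, and Fpr2 is its broader relative, which also binds annexin A1, serum amyloid A and cathelicidin peptides. The genes lie head to head on chromosome 17 (GRCm38), Fpr1 on the minus strand at chr17:17876471-17883940 and Fpr2 on the plus strand at chr17:17887824-17893952, with 3884 bases between them. Their coding sequences were 66.4% identical, and 1.55% of the 31-base words of the Fpr1 transcript occurred in Fpr2, so that few reads could be split between them. Fpr2 overlaps Fpr3 in the annotation, and their coding sequences were 88.2% identical. Fpr3 did not pass the filter on low counts. The promoter windows below (RefSeq, GRCm38.p6, from 250 bases before to 50 after the start) are shown because both genes face into the same short interval. Capitals mark matches, on either strand, to the TATA-type motif TATAAA and to GAGGAA, the core of sites bound by the myeloid factor PU.1; the Fpr1 window is chr17:17883890-17884189, minus strand, and the Fpr2 window is chr17:17887574-17887873, plus strand.
Fpr1 promoter: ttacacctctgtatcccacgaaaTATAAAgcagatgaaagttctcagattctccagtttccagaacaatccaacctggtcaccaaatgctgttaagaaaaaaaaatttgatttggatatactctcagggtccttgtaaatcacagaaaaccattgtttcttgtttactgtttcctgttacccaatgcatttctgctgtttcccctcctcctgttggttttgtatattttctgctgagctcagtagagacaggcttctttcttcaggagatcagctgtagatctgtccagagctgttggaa
Fpr2 promoter: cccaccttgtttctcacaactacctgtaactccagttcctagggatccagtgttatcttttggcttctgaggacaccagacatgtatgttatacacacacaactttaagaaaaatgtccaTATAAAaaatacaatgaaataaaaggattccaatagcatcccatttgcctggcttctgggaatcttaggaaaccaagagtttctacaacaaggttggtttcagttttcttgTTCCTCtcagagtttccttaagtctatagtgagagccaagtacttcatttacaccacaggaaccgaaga
Both windows held TATAAA, which occurred in 13.6% of 32544 promoters, and Fpr2 held GAGGAA on the minus strand, as did 28.1% of promoters on either strand.

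In neutrophils Fpr1 stood at 565, 1228 and 1633 CPM in TN2 tag_367, tag_706 and tag_1341, and at 1487 and 613 CPM in TN1 tag_191 and tag_482. In monocytes it stood at 2.34, 39.7 and 21.9 CPM in the same TN2 tags, against 2.90 and 0.843 CPM in the TN1 tags. The cell types did not overlap, and the mean of 5 neutrophil libraries was 1105 ± 493 CPM, against 13.5 ± 17.0 CPM over 5 of monocytes (SD). The fitted log2 difference was 7.43 ± 0.91 (SE, approximated from the test statistic), and 8.08 without monocytes of TN1 tag_191. Between tumours the neutrophil libraries overlapped, with a log2 difference of 0.12 ± 0.91 (TN2 minus TN1). In monocytes the log2 difference was 3.49 ± 1.11, carried by tag_706 and tag_1341, since TN2 tag_367 lay below TN1 tag_191.

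Fpr2 in neutrophils stood at 259, 382 and 436 CPM in TN2 tag_367, tag_706 and tag_1341, and at 308 and 241 CPM in TN1 tag_191 and tag_482. In monocytes it stood at 14.5, 21.6 and 59.8 CPM in the TN2 tags, against 7.63 and 0.361 CPM in the TN1 tags. Here every TN2 monocyte library lay above both TN1 libraries, with a log2 difference of 2.99 ± 1.0 and, without TN1 tag_191, of 6.39, where edgeR called Fpr2 with the lone TN1 library at 3 counts. Averaged over the tumours, the log2 difference between neutrophils and monocytes was 4.79 ± 0.74, and 6.53 without monocytes of TN1 tag_191. Of the 2 Fpr2 transcripts quantified, Fpr2-202, with a coding sequence of 147 bases, took 63.4 ± 6.2% of Fpr2 counts in neutrophils (n = 5) and 57.9 ± 15.6% in the 4 monocyte libraries with at least 20 counts.

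C5ar1, the receptor for the complement fragment C5a, was the most abundant of the 9 per length of transcript. C5ar1 stood at 2735, 5946 and 5070 CPM in TN2 neutrophils (tag_367, tag_706 and tag_1341) and at 4771 and 3519 CPM in TN1 neutrophils (tag_191 and tag_482). Monocytes held 312, 470 and 857 CPM in the same TN2 tags, and 518 and 373 CPM in the TN1 tags. All neutrophil libraries exceeded all monocyte libraries, the log2 difference was 3.14 ± 0.36, and the tumour groups overlapped in both cell types, with differences of 0.15 ± 0.47 in neutrophils and 0.29 ± 0.47 in monocytes, where it was -0.33 without TN2 tag_1341.

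The split of C5ar1 counts between its 2 annotated transcripts, which differ at the first exon, was also uneven between the cell types. The transcript C5ar1-202 took 5.29%, 4.34% and 2.72% of C5ar1 counts in TN2 neutrophils (tag_367, tag_706 and tag_1341) and 4.43% and 1.77% in TN1 neutrophils (tag_191 and tag_482). In monocytes it took 26.7%, 6.91% and 12.9% in the TN2 tags, and 37.2% and 7.67% in the TN1 tags. The mean share was 3.71 ± 1.43% in neutrophils and 18.3 ± 13.2% in monocytes (SD, n = 5 each), a difference of -14.6 percentage points, with every neutrophil library below every monocyte library. This share was chosen for description after its values were seen, and is given without a test. C5ar1-201 starts with a 28-base exon at chr7:16259513-16259540 (GRCm38, minus strand), whereas C5ar1-202 starts with a 194-base exon at chr7:16259145-16259338; both carry the same coding sequence of 1056 bases. They shared 96.5% of the 31-base words of C5ar1-202, so that the split rests on the few reads at the 5′ end. The RefSeq promoter window of C5ar1 ends inside the C5ar1-202 exon (chr7:16259289-16259588, minus strand), and is shown because it spans the start of both transcripts. It is placed on the start of C5ar1-202, and upstream of C5ar1-201, the transcript with most counts, it reaches only to chr7:16259588. It held none of the motifs searched, and so has no capitals, which says little about the region before C5ar1-201.
C5ar1 promoter: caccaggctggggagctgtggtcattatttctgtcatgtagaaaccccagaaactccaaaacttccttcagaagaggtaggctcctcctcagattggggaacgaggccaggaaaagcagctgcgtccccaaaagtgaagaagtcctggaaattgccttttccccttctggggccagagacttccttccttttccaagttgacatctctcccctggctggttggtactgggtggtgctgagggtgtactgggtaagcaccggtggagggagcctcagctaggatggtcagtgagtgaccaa

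**Figure D2:**
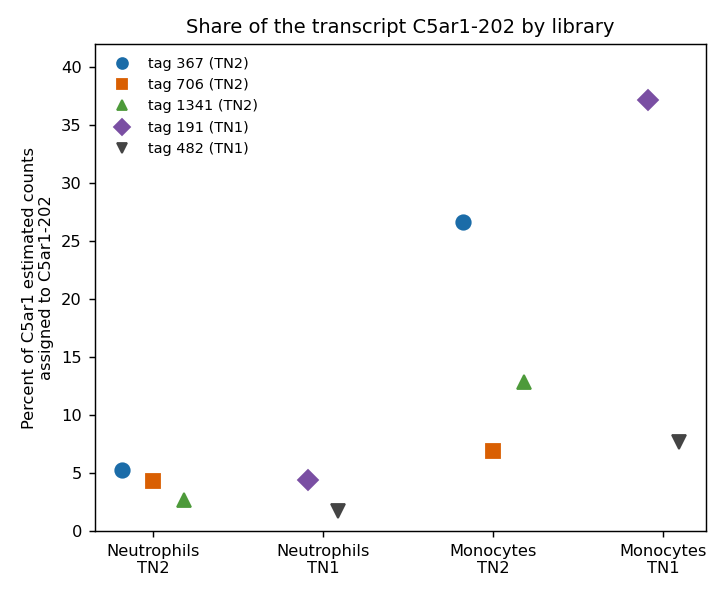
Percent of C5ar1 estimated counts assigned to the transcript C5ar1-202, by library, with symbols for tags. The 5 neutrophil libraries sat between 1.77% and 5.29%, and the 5 monocyte libraries between 6.91% and 37.2%.

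The lipid chemoattractant receptors differed in how far they separated the cell types. Ltb4r1, the high-affinity leukotriene B4 receptor (chr14:55765962-55768494), stood at 149, 169 and 207 CPM in TN2 neutrophils (tag_367, tag_706 and tag_1341), and at 202 and 103 CPM in TN1 neutrophils (tag_191 and tag_482). Monocytes held 127, 61.5 and 108 CPM in the TN2 tags, against 101 and 102 CPM in the TN1 tags. The cell types overlapped, with a log2 difference of 0.71 ± 0.28 on counts and of -0.06 on log2(TPM + 1), so that its direction depended on the scale. Ptafr, the receptor for platelet-activating factor (chr4:132564067-132582683), stood at 1558, 3111 and 2920 CPM in TN2 neutrophils and 2781 and 1365 CPM in TN1 neutrophils, in the same order of tags. Monocytes held 474, 340 and 571 CPM of Ptafr in the TN2 tags and 619 and 377 CPM in the TN1 tags, all below every neutrophil library, and the log2 difference was 2.26 ± 0.32. For both receptors the tumour difference was under its SE in each cell type: 0.20 ± 0.40 and 0.29 ± 0.44 for Ltb4r1 and Ptafr in neutrophils, and -0.04 ± 0.40 and -0.11 ± 0.43 in monocytes. Without neutrophils of TN1 tag_191 the neutrophil differences exceeded their SE, at 0.78 ± 0.48 and 0.90 ± 0.54.

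Hcar2, the receptor for nicotinic acid and the ketone body beta-hydroxybutyrate (chr5:123863570-123865499), was among the receptors most alike across neutrophil libraries. It stood at 935, 1244 and 1177 CPM in TN2 neutrophils (tag_367, tag_706 and tag_1341) and at 1470 and 950 CPM in TN1 neutrophils (tag_191 and tag_482), a coefficient of variation of 19.2%. In monocytes it stood at 5.91, 69.9 and 2.93 CPM in the TN2 tags, against 7.53 and 9.64 CPM in the TN1 tags. The cell types did not overlap (log2 difference 6.28 ± 0.93, and 7.56 without monocytes of TN2 tag_706). In monocytes TN2 tag_706 was high, and without it the log2 difference between tumours was -0.94 in place of 1.61 ± 1.08.

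Mrgpra2a and Mrgpra2b are Mas-related receptors that in mouse skin let neutrophils respond to defensins of keratinocytes. They sit 11667 bases apart on the minus strand of chromosome 7, at chr7:47426328-47452139 and chr7:47463806-47528862, and are near-identical copies. Their coding sequences of 996 bases differed at 2 bases, A351G and G890A (Mrgpra2a base, position from 1 at the start codon, Mrgpra2b base), and 92% of the 31-base words of the Mrgpra2a transcript occurred in Mrgpra2b. The 61-base windows around these sites (GENCODE release M21 transcripts, coding strand) are shown because they are all that tells the coding sequences apart, and the capital marks the base that differs.
Mrgpra2a site at 351: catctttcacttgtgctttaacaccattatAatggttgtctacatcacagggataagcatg
Mrgpra2b site at 351: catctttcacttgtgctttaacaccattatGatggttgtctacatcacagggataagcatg
Mrgpra2a site at 890: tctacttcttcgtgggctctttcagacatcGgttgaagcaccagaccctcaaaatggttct
Mrgpra2b site at 890: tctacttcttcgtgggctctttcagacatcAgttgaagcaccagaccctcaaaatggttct
Their RefSeq promoter windows (chr7:47452115-47452414 and chr7:47489533-47489832, minus strand) were identical at all 300 bases, and are printed once, with capitals for a GAGGAA match on the other strand. The Mrgpra2b window lies inside the annotated gene and not at its 5′ end.
Mrgpra2a and Mrgpra2b promoter: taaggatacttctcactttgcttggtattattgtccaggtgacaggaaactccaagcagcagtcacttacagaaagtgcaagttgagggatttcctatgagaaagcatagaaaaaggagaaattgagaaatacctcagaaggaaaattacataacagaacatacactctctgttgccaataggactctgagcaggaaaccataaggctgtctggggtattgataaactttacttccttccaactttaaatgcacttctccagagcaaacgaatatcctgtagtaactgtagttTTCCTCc
With this likeness the split of reads between the copies is uncertain, and their sum is the firmer value.

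Mrgpra2a stood at 310, 358 and 456 CPM in TN2 neutrophils (tag_367, tag_706 and tag_1341) and at 484 and 443 CPM in TN1 neutrophils (tag_191 and tag_482). Mrgpra2b stood at 833, 1069 and 1394 CPM in TN2 neutrophils and at 1442 and 1226 CPM in TN1 neutrophils, in the same order. Mrgpra2a made up 24.7% to 27.1% of the pair's counts in the 5 neutrophil libraries, a narrow range across tumours. Summed, the pair reached 1143 to 1926 CPM in neutrophils, with a log2 difference between tumours of -0.29 ± 0.91. In monocytes the pair summed to 0.949, 27.4 and 5.78 CPM in the TN2 tags, against 0.323 and 0.120 CPM in the TN1 tags. The mean CPM of Mrgpra2a was 277-fold higher in neutrophils than in monocytes, and that of Mrgpra2b 219-fold higher; without monocytes of TN2 tag_706, which held most of these monocyte counts, the ratios were 2029 and 749. In TN1 monocytes Mrgpra2a had 1 count and Mrgpra2b 3 counts over both libraries. The TN2 to TN1 ratios of 45.2 (95% exact counting interval 7.94 to 1803) and 54.5 (18.5 to 266) thus cover counting error only. The 3 counts of TN1 tag_191, and the 9.3 of Mrgpra2b in TN2 tag_367, were assigned to the transcript Mrgpra2b-202. In neutrophil libraries that transcript held 0 counts, and all Mrgpra2b counts were assigned to Mrgpra2b-201. Of the TN2 counts 96 of 105 for Mrgpra2a and 303 of 380 for Mrgpra2b came from tag_706, and without it the ratios were 6.02 (0.834 to 264) and 17.2 (5.66 to 85.1).

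S1pr1, the sphingosine-1-phosphate receptor that guides exit from tissues and holds the endothelial barrier (chr3:115710433-115715072), was uneven within both cell types. S1pr1 stood at 32.5, 30.1 and 0.457 CPM in TN2 neutrophils (tag_367, tag_706 and tag_1341), and at 10.7 and 6.43 CPM in TN1 neutrophils (tag_191 and tag_482). Monocytes held 6.28, 151 and 3.49 CPM in the TN2 tags, against 2.69 and 5.66 CPM in the TN1 tags. The cell types and the tumours overlapped throughout. The high monocyte library, TN2 tag_706, was also the one with 1408 CPM summed over 8 endothelial markers, against 24.4 to 157 CPM in the other monocyte libraries, and the low neutrophil library, TN2 tag_1341, had 6.55 CPM, against 119 to 390 CPM in the other neutrophil libraries. The marker sum and S1pr1 did not go together throughout. Among neutrophils TN1 tag_482 had the highest sum (390 CPM) with S1pr1 at 6.43 CPM, against 327 CPM with S1pr1 at 32.5 CPM in TN2 tag_367. Single markers differed in this. Tek, Pecam1 and Kdr were higher in TN1 tag_482, at 116, 110 and 52 CPM, against 20.4, 83.6 and 32.8 CPM in TN2 tag_367. The other endothelial markers were lower in TN1 tag_482, as S1pr1 was, among them the endothelial cadherin Cdh5 (7 CPM, against 23.5 CPM). Cldn5, a tight-junction protein, and Cdh5 stood at 582 and 84.5 CPM in monocytes of TN2 tag_706. Without that library, the log2 difference between tumours in monocytes was 0.24 in place of 3.68 ± 1.90, and that between cell types was 1.59 in place of -0.16 ± 1.16; the part of endothelial RNA in these values was not tested.

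GAGGAA thus occurred in the windows of Fpr2, Ltb4r1, Ptafr, Mrgpra2a and Mrgpra2b, 5 of the 7 receptors with a window, against 28.1% of all promoters. The Mrgpra2a and Mrgpra2b windows are identical and both counted here, whereas identical sequences were merged for the share of all promoters. TTGCNNAA, a motif of the C/EBP type, occurred in 0 of 7, against 10.8% of all promoters. These matches are letters only.

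Per length of transcript, the order of the receptors was not the same in the 2 cell types. In neutrophils C5ar1 led with a mean of 1604 TPM (range 1172 to 2078 TPM), followed by Mrgpra2b at 945 ± 170 TPM, Fpr1 at 813 ± 318 TPM, Ptafr at 566 ± 167 TPM and Hcar2 at 558 ± 109 TPM. Below them came Fpr2 at 361 ± 53.8 TPM, Mrgpra2a at 334 ± 55.4 TPM, Ltb4r1 at 117 ± 27.2 TPM and S1pr1 at 5.03 ± 4.66 TPM (SD, n = 5). C5ar1 ranked 81 among 18005 genes with a value above 0 in neutrophils, and Mrgpra2b ranked 142. Neighbours in this order that differed by less than the larger SD were Mrgpra2b and Fpr1, Fpr1 and Ptafr, Ptafr and Hcar2, and Fpr2 and Mrgpra2a.

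In monocytes C5ar1 again led, with 332 ± 160 TPM, and was followed by Ptafr at 204 ± 54.3 TPM and Ltb4r1 at 123 ± 29.8 TPM. The other 6 lay between 2.47 ± 4.92 TPM (Mrgpra2a) and 42.2 ± 45.6 TPM (Fpr2). Only the steps between Ptafr and Ltb4r1 and between Ltb4r1 and Fpr2 exceeded the larger SD among the 8 steps of this order. The 9 receptors together took 4180 to 6568 TPM in neutrophil libraries and 429 to 1151 TPM in monocyte libraries.

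By edgeR's quasi-likelihood test with Benjamini-Hochberg adjustment over 13398 genes, 0 genes (0%) were called between TN2 and TN1 in neutrophils, where 626 had an unadjusted p under 0.05, and 0 genes (0%) in monocytes, where 380 did. DESeq2 called 87 genes in neutrophils and 20 in monocytes, Mrgpra2b among them. TN2 lay wholly above TN1 for 0 of the 9 receptors in neutrophils and for 3 in monocytes (Fpr2, Mrgpra2a and Mrgpra2b), as did 11.8% and 12.4% of all genes in these cell types. TN2 lay wholly below TN1 for 0 of the 9 in either cell type, against 5.93% of all genes in neutrophils and 7.73% in monocytes. In neutrophils the log2 difference of all 9 receptors stayed within its SE with all libraries in the fit, and ranged between -0.31 ± 0.95 (Mrgpra2a) and 1.29 ± 1.69 (S1pr1), with a median over all genes of 0.22. The tumour difference in neutrophils minus that in monocytes was -3.37 ± 1.38 for Fpr1 and -2.60 ± 1.26 for Fpr2 on the log2 scale, and -0.36 and -1.62 without monocytes of TN2 tag_706 and tag_1341. For Mrgpra2a and Mrgpra2b the fit gave -5.43 ± 2.02 and -5.91 ± 1.74, sizes that depend on the prior count since TN1 monocytes held 1 and 3 counts. It lay between -2.39 ± 2.33 (S1pr1) and 0.40 ± 0.61 (Ptafr) for the other 5. For this difference of the tumour effects, 0 genes (0%) were called by edgeR, with 472 at an unadjusted p under 0.05, and 21 by DESeq2, with none among the 7 receptors to which it gave an adjusted p. The authors' deposited tables listed 7 of these receptors, each with an adjusted p of 1 in both comparisons, and the largest of their log2 fold changes was 3.57, for Fpr2 in monocytes.

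**Figure D3:**
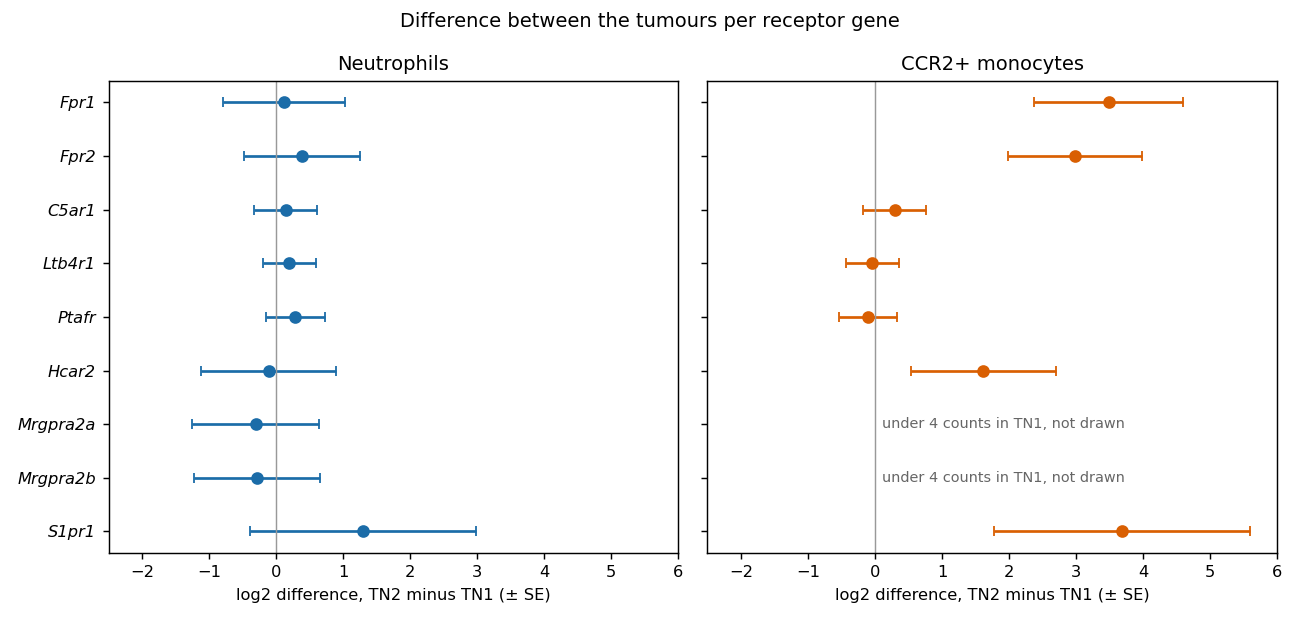
Fitted log2 difference between TN2 and TN1 (TN2 minus TN1) with its SE for each receptor, in neutrophils on the left and in CCR2+ monocytes on the right; genes with fewer than 4 counts in TN1 are not drawn. In neutrophils all intervals drawn crossed 0, and in monocytes Fpr1 (3.49), Fpr2 (2.99), Hcar2 (1.61) and S1pr1 (3.68) lay more than 1 SE above it.

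TN2 tag_706 and tag_1341, the monocyte libraries with the most Fpr1, Fpr2 and Mrgpra2b, also had the highest levels of neutrophil markers. In TN2 tag_367, tag_706 and tag_1341 the 15 neutrophil markers reached a median of 0.158%, 2.54% and 0.525% of their mean neutrophil CPM, against 0.0485% and 0.113% in TN1 tag_191 and tag_482. In TN2 tag_706, Fpr1, Mrgpra2a and Mrgpra2b stood at 3.59%, 1.61% and 1.74% of their mean neutrophil CPM, near the marker median, and Hcar2 at 6.05%. In TN2 tag_1341, Fpr1 stood at 1.98%, Mrgpra2b at 0.452% and Hcar2 at 0.254%. Fpr2 exceeded the marker median in 4 of the 5 libraries, at 4.44%, 6.65% and 18.4% in the TN2 tags and 2.35% in TN1 tag_191, and lay at 0.111% in TN1 tag_482. C5ar1, Ptafr and Ltb4r1 lay far above it, at 7.08% to 19.4%, 14.5% to 26.4% and 37.0% to 76.2%. Single markers were widely spread around the median, and the highest reached 12.7%, 7.68% and 21.3% in TN2 tag_367, tag_706 and tag_1341. In TN1 tag_191 and tag_482 the highest stood at 5.59% and 5.84%. Fpr2 lay below the highest marker in every library, and C5ar1 did in TN2 tag_367 and tag_1341. Without TN2 tag_706 and tag_1341 the log2 difference between tumours was 0.36 for Fpr1 and 1.89 for Fpr2; the part of neutrophil RNA in these values was not tested. Summed over 7 alveolar macrophage markers, monocyte libraries held 1689, 4232 and 9259 CPM in TN2 tag_367, tag_706 and tag_1341, against 533 and 99.3 CPM in TN1 tag_191 and tag_482. Of the 7 markers, 2, 0 and 4 were at 0 in these TN2 tags, and 1 and 3 in the TN1 tags. The sum thus stood higher in TN2, though not each marker in each library, and the part of this RNA was not tested either.

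**Figure D4:**
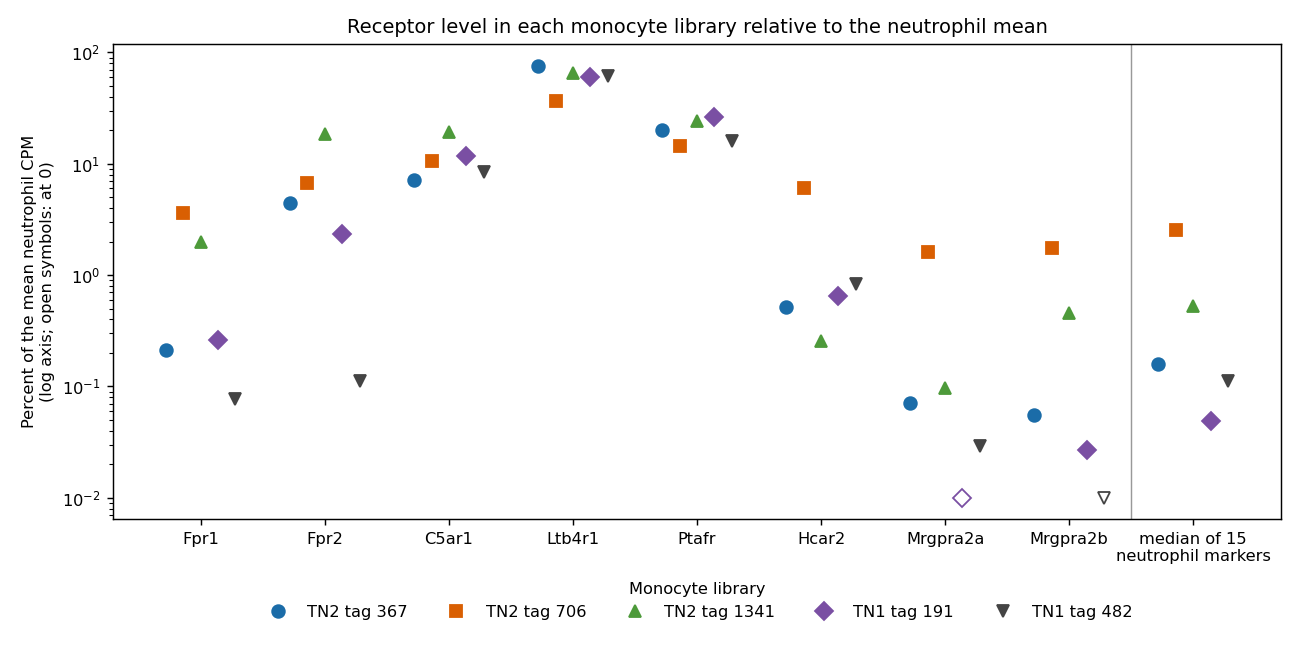
CPM of 8 receptors in each monocyte library as a percent of the mean over 5 neutrophil libraries (log axis), with the median of 15 neutrophil markers at the right; symbols are libraries and open symbols are at 0. The marker median ran between 0.0485% and 2.54% and Fpr1 between 0.0763% and 3.59%, while C5ar1, Ltb4r1 and Ptafr stood at 7.08% or more in every library.

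Between the cell types, averaged over the tumours, edgeR's quasi-likelihood test called 3741 of 13398 genes (27.9%) at an adjusted p under 0.05, 1664 of them higher in neutrophils (12.4%) and 2077 lower (15.5%). On log2(TPM + 1) limma called 1201 genes higher and 4534 lower, and the median over all genes was -0.62 on that scale and -0.46 on counts. The wider receptor biology was drawn from lists of related genes, and each call below had the same sign on log2(TPM + 1). Of the genes tested per list, the share called ran from 21.4% (lysophospholipid and prostanoid receptors) to 71.4% (other chemoattractant receptors), beside 27.9% of all genes. These lists were chosen with earlier results known, so their shares are a description.

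Among other chemoattractant receptors, 7 of 16 listed genes could be tested, 2 were higher and 3 lower in neutrophils, and the median log2 difference was -1.56. Ccrl2, an atypical receptor that presents chemerin, averaged 6512 ± 2092 CPM in neutrophils, against 625 ± 119 CPM in monocytes (log2 difference 3.29 ± 0.26, adjusted p = 7.07e-05, edgeR). C5ar2, the second C5a receptor, averaged 141 ± 27.7 CPM in neutrophils, against 23.5 ± 14.7 CPM in monocytes (2.69 ± 0.56, adjusted p = 0.00598, edgeR). C3ar1, the receptor for the complement fragment C3a, went the other way, with 8.50 ± 7.14 CPM in neutrophils, against 74.9 ± 23.0 CPM in monocytes. Gpr183, which binds oxysterols, averaged 8.85 ± 9.20 CPM in neutrophils, against 112 ± 46.8 CPM in monocytes, and Cmklr1, the signalling chemerin receptor, 0.743 ± 0.439 CPM in neutrophils, against 8.34 ± 5.54 CPM in monocytes.

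Among receptors for metabolites, nucleotides and protons, 18 of 23 could be tested, 5 were higher and 4 lower in neutrophils, and the median log2 difference was 0.23. P2ry13, which binds ADP, averaged 156 ± 58.2 CPM in neutrophils, against 5.80 ± 3.85 CPM in monocytes (5.17 ± 0.61, adjusted p = 0.000331, edgeR). Gpr84, a receptor for medium-chain fatty acids, averaged 128 ± 95.2 CPM in neutrophils, against 9.18 ± 5.21 CPM in monocytes, and P2ry2, Gpr35 and Gpr132 were also higher. The adenosine receptor Adora2b averaged 26.0 ± 51.6 CPM in neutrophils, against 159.9 ± 69.1 CPM in monocytes, and P2ry6, P2ry10 and P2ry14 were lower with it.

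Among lysophospholipid, prostanoid and cannabinoid receptors 14 of 19 could be tested, and 3 were higher in neutrophils and 0 lower, with a median of 1.0. These were Cnr2, the peripheral cannabinoid receptor (168.9 ± 33.4 CPM in neutrophils, against 10.9 ± 7.22 CPM in monocytes), S1pr2 (189.7 ± 58.7 CPM in neutrophils, against 11.1 ± 7.91 CPM in monocytes) and S1pr4 (33.9 ± 14.6 CPM in neutrophils, against 6.28 ± 5.42 CPM in monocytes), the last pair being relatives of S1pr1. Among other Mas-related and adhesion receptors 7 of 23 could be tested, 2 were higher and 1 lower, and the median was -0.33. Adgrg3, an adhesion receptor, averaged 150.8 ± 43.9 CPM in neutrophils, against 3.72 ± 7.90 CPM in monocytes. Adgre5, also known as CD97, was higher at 2444 ± 885 CPM in neutrophils, against 767 ± 190 CPM in monocytes, and Adgre4 was lower.

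**Figure D5:**
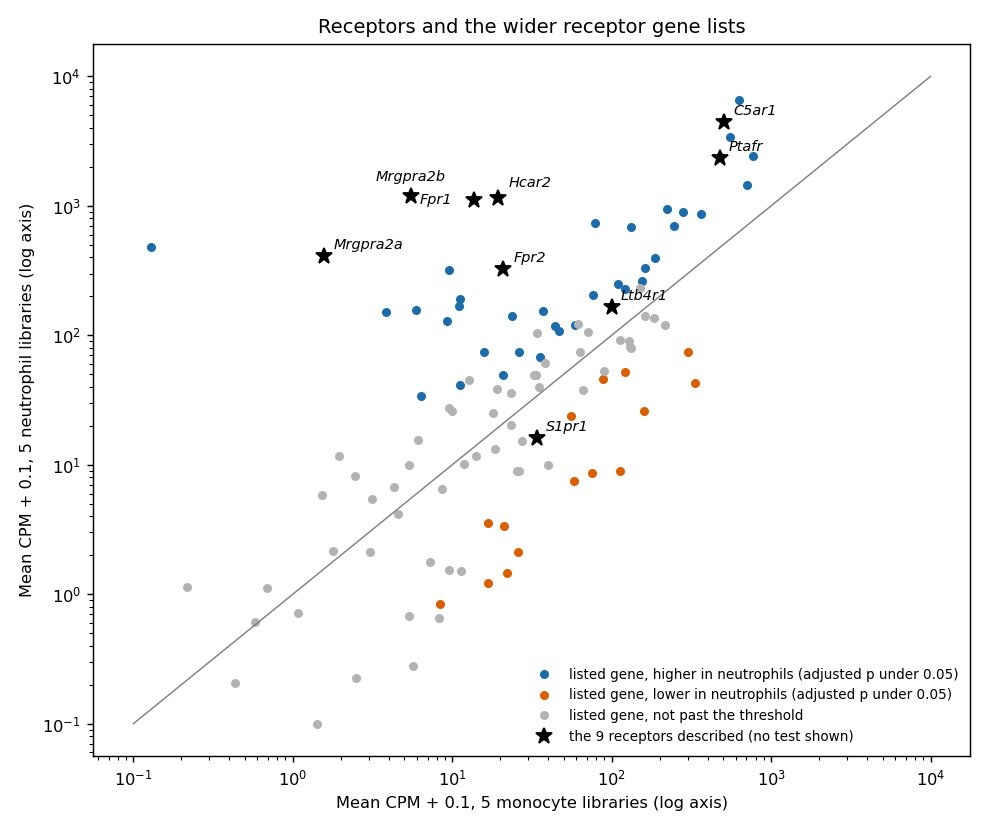
Mean CPM plus 0.1 in 5 neutrophil libraries against 5 monocyte libraries, both on log axes, for the 9 receptors (stars) and the listed receptor, G protein, desensitisation and ligand genes (dots, coloured by edgeR call); the line marks equal levels. Mrgpra2a, Mrgpra2b, Fpr1 and Hcar2 lay far above the line, while Ltb4r1 and S1pr1 lay close to it.

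Of the G proteins and effectors through which these receptors signal, 28 of 29 could be tested, 11 were higher and 3 lower in neutrophils, with a median of 0.50. Rac2, the haematopoietic Rac, averaged 2391 ± 292 CPM in neutrophils, against 479 ± 85.1 CPM in monocytes (2.30 ± 0.21, adjusted p = 0.000105, edgeR). Gnai3, an inhibitory G protein subunit, averaged 688 ± 197 CPM in neutrophils, against 131.5 ± 16 CPM in monocytes (2.34 ± 0.25, adjusted p = 0.000191, edgeR). The Src-family kinase Fgr, the G protein gamma subunit Gng5 and the Rac activator Prex1 were also higher, and Gnas, the stimulatory alpha subunit, Gnb1 and Gna12 were lower.

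Of 15 genes of receptor desensitisation, all tested, 5 were higher and 2 lower in neutrophils, with a median of 0.93. Rgs2, which speeds the switching off of G proteins, averaged 889 ± 326 CPM in neutrophils, against 280.3 ± 17.8 CPM in monocytes, and the receptor kinase Grk2 and the arrestin Arrb2 were higher with Rgs14 and Rgs18. Rgs1 averaged 42.9 ± 22.6 CPM in neutrophils, against 333 ± 293 CPM in monocytes (-2.88 ± 0.41, adjusted p = 0.000794, edgeR), and Rgs10 was also lower. Of the ligands, ligand-making enzymes and regulators, 17 of 19 could be tested, 7 were higher and 2 lower, with a median of 0.68. Anxa1, the Fpr2 ligand annexin A1, averaged 3390 ± 703 CPM in neutrophils, against 549 ± 165 CPM in monocytes (2.72 ± 0.25, adjusted p = 0.000105, edgeR). Alox5, the enzyme that begins leukotriene synthesis, averaged 319 ± 83.9 CPM in neutrophils, against 9.46 ± 7.92 CPM in monocytes, and Alox5ap, its partner protein, was higher with it. Lpcat2, which makes platelet-activating factor, averaged 734 ± 189.7 CPM in neutrophils, against 78.4 ± 21.7 CPM in monocytes, and Camp, the precursor of the cathelicidin peptide, averaged 477 ± 584 CPM in neutrophils, against 0.0296 ± 0.0407 CPM in monocytes. Klf2 and Cd69, a factor that raises S1pr1 and a protein that removes it from the surface, were both higher in neutrophils, and Sphk1 and Lpcat1 were lower.

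In all 7 lists 0 genes were called between TN2 and TN1 by edgeR in either cell type. Their median log2 differences between the tumours, with genes of at most 3 counts on a side set to a bound at 3 counts, lay between -0.14 and 0.39 in neutrophils and between -0.20 and 0.55 in monocytes, beside 0.22 over all genes in each.

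The genes most like Fpr1 over the 10 libraries, by Pearson's r of log2(CPM + 1), were Txnip (0.990), Carhsp1 (0.990), Pglyrp1 (0.989), Slc40a1 (0.989) and Ltb (0.986), and 648 genes exceeded 0.9. Those most like Hcar2 were Ifi27 (0.993), Mmp9 (0.992), Foxd4 (0.992), Slc2a3 (0.990) and Ncam2 (0.990), and 577 exceeded 0.9. The 10 points share the 2 cell types and their libraries, and these values are a description.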

How the data were processed

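RNA of sorted cells was amplified by Smart-seq2, a full-length method without molecular identifiers, and sequenced, per the labels. Reads were quantified by the authors using kallisto (version 0.42.3, per the series' design text) on transcripts of GRCm38; the annotation release is not given in the sources used here. Per the file headers, each deposited table gives an estimated count and a TPM value per transcript. The authors' deposited comparison tables give log2 group means and a p-value with and without adjustment; their 28 means for these receptors equalled the mean of log2(TPM + 1) within 0.01. Their fold and log2 fold columns were made by the authors with AltAnalyze, per the series' design text.

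Transcripts were summed to genes with GENCODE release M21 (96.1% of 85276 matched; the rest held 1.92% to 3.56% of counts). Of the receptors 6 matched the deposited tables by symbol, 1 by gene identifier (Hcar2 as Niacr1), and Mrgpra2a and Mrgpra2b were matched by neither. Rounded estimated counts of all 10 libraries were fitted with edgeR 4.0.16 (4 groups, TMM, filterByExpr with a total of at least 10 counts, quasi-likelihood test, 6 residual degrees of freedom, biological coefficient of variation 0.887) in R 4.3.3. Alternatives used DESeq2 1.42.0, limma 3.58.1, other filters and scalings, and left-out libraries. The fit was also run on simulated counts with a smaller spread than these data, which checks its working and not its power here. Alignments used Biopython 1.88. Receptors, gene lists and marker lists were chosen with earlier results of these data known. Of the listed receptors 1, and some genes of the wider lists, are not reported here. Genes named from a list are those past an adjusted p of 0.05, at most 6 per direction by smallest p. Alox5ap, also past this threshold, was named in addition.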

Additional observations from a re-analysis of the deposited data

How the results depend on the processing

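Groups of 2 and 3 libraries limit every tumour comparison, and leaving out TN1 tag_191 leaves its group with 1 library, assumed to vary like the others. Genes called between TN2 and TN1 in neutrophils numbered 0, against 2 with no filter on low counts, 87 by DESeq2, and 1 and 3 by limma on log2(TPM + 1) and log2(TPM + 0.1); with each library left out they ranged from 0 to 510 (510 without neutrophils of TN1 tag_191). In monocytes DESeq2 called 20, and leaving out libraries gave 0 to 128 (128 without monocytes of TN1 tag_191). For the difference of the tumour effects, 1 gene was called with no filter and 21 by DESeq2, and leaving out libraries gave 0 to 380 (380 without neutrophils and 71 without monocytes of TN1 tag_191). Between cell types, limma on log2(TPM + 1) called 5735 genes in place of 3741, leaving out libraries gave 2686 to 3865, and without monocytes of TN2 tag_706 and tag_1341, an alternative chosen after seeing the data, 2131 were called. The cause of these shifts was not tested.

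The receptors' log2 differences kept their sign in 148 of 163 alternative values in neutrophils, 150 of 162 in monocytes, 144 of 163 for the difference of the tumour effects and 155 of 163 between cell types. The C5ar1-202 difference ran from -17.4 to -9.84 percentage points with each library left out. Whether tags shared by both cell types pair the libraries is uncertain. Deviations of same-tag libraries from their group means correlated at 0.440 for tag_706, 0.444 for tag_1341 and -0.0931 for tag_367. Both tag_191 and tag_482 gave 0.105, the same value by construction, since deviations in a group of 2 libraries mirror each other. Libraries of different tags correlated at -0.475 to 0.253, all below the values of tag_706 and tag_1341. Deviations in a group of 3 libraries sum to 0, so these values also depend on each other and cannot settle the pairing. The fit without the tag was kept, and the fit with it is given as an alternative. With the tag as a replicate block, 3341 genes were called between cell types and 0 for the difference of the tumour effects. Called genes of the desensitisation list ranged from 3 to 10 over the alternatives (7 as reported), of the lysophospholipid list from 2 to 6 (3), of the metabolite list from 4 to 12 (9), of the G protein list from 9 to 15 (14) and of the adhesion list from 3 to 5 (3). Without TN1 tag_191, at most 2 genes of any list were called between the tumours.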
